A study of Arabidopsis thaliana with 21 samples.

Results

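The comparison described here is of asil1-1 seedlings with asil2-1 seedlings, 2 single mutants of Arabidopsis thaliana in the Col-0 ecotype, set directly against each other without any wild-type library. Its members are the 6 RNA-seq libraries whose titles name one single mutant in Col-0, 3 of asil1-1 and 3 of asil2-1, of the 21 libraries of the series. The series profiled polyadenylated RNA of whole seedlings of 7 genotypes, among them the double mutant asil1-1 asil2-1 and the wild type Col-0, which appear below only as levels for orientation. Both single mutants were grown on sucrose-free MS plates at 22 °C with a 16 h light period, and the seedlings were frozen at an age of 14 days. Each gene was represented by 1 mutant allele here. The submitters call the 3 libraries of a genotype biological replicates, and the number of seedlings in each is not stated in the labels.

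ASIL1 and ASIL2 encode trihelix transcription factors, a plant family named for a DNA-binding domain predicted to fold into a bundle of helices and known for binding GT-rich elements. ASIL1 is known as a repressor of embryonic and seed maturation genes in seedlings, and ASIL2 as its close relative with an overlapping role. A direct comparison of the single mutants asks how far the transcriptomes of the 2 lines differ from each other. Since the RNA came from whole seedlings, fewer cells of a type and less RNA per cell cannot be told apart in any value below.

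The asil1-1 libraries held 13577815, 11015050 and 8032518 counts, and the libraries labelled asil2-1 held 11064887, 18277162 and 12559699 counts. Of 22718 loci with a count in these libraries, 17987 passed the filter on low counts and were tested. At an adjusted p under 0.05 (edgeR's quasi-likelihood test with Benjamini-Hochberg adjustment), 2782 genes (15.5%) were higher and 2036 genes (11.3%) were lower in asil1-1 than in the libraries labelled asil2-1. By at least 2-fold, 582 were higher and 503 lower, and by at least 4-fold, 60 were higher and 212 lower. The median log2 difference over all genes tested was -0.005, and for 7712 genes (42.9%) the libraries of the groups did not overlap. The first principal component, with 60.7% of the variance, placed the 3 asil1-1 libraries on one side and the 3 labelled asil2-1 on the other.

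ASIL1 transcript (AT1G54060, chromosome 1) was at 5.06, 4.47 and 4.97 CPM (counts scaled to library size and composition) in the asil1-1 libraries, against 46.3, 36.0 and 38.9 CPM in the libraries labelled asil2-1. The groups did not overlap, and the log2 difference, here and below asil1-1 minus asil2-1 with its standard error and n = 3 each, was -3.04 ± 0.14 (adjusted p = 3.47e-07). ASIL2 transcript (AT3G14180, chromosome 3) was also lower in asil1-1, at 50.9, 58.0 and 53.5 CPM against 434, 381 and 490 CPM in the libraries labelled asil2-1 (-2.99 ± 0.11, adjusted p = 1.38e-07). The transcript named by the asil2-1 label was thus higher, not lower, where that mutation was labelled. It averaged 168 ± 32.5 CPM in asil1-1 asil2-1 and 38.1 ± 8.97 CPM in Col-0 (SD). Counts over a whole gene do not show whether a transcript is complete, so ASIL2 does not check the label, and every direction below is relative to libraries labelled asil2-1. Near ASIL1, 3 of the 7 tested genes within 5 positions on either side were called, AT1G54050 higher (1.24 ± 0.25) and UBP1A (-0.25 ± 0.08) and EXO70D2 (-0.42 ± 0.09) lower, the call of UBP1A being lost with a correction for transcript length, without asil1-1 replicate 3 or without any 1 library labelled asil2-1. Near ASIL2, 3 of 9 were called, AT3G14172 lower (-0.58 ± 0.10) and ESM1 (0.31 ± 0.09) and AT3G14220 (0.62 ± 0.13) higher. Both counts of neighbours stand beside 26.8% of all genes called.

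**Figure D1:**
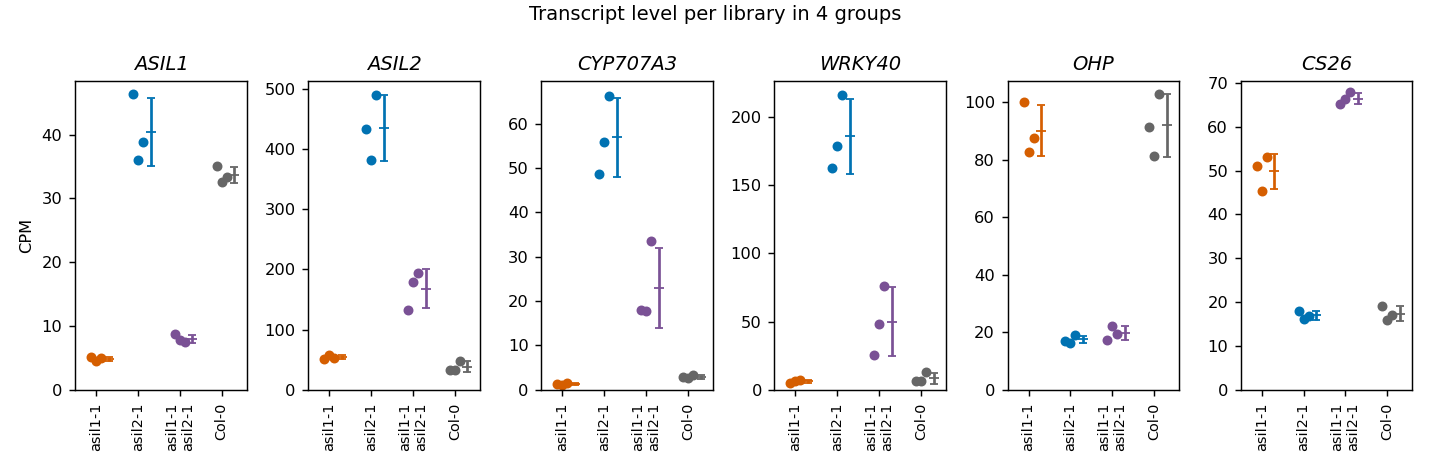
Transcript level in CPM (linear axis from 0) of 6 genes, by library, in asil1-1, asil2-1, asil1-1 asil2-1 and Col-0, with the mean and SD of 3 libraries beside the points. ASIL1 is low in both genotypes that carry asil1-1, ASIL2, CYP707A3 and WRKY40 are highest in the libraries labelled asil2-1, OHP is high in asil1-1 and Col-0, and CS26 is high in asil1-1 and asil1-1 asil2-1.

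A large block of differences was in genes that plants are known to switch on rapidly after touch, wounding, cold or immune elicitors. Of 33 such regulators listed, 30 were tested, 28 were lower in asil1-1 and none was higher, against 11.3% of all genes lower. Their median log2 difference was -2.50 (range -5.12 to -0.33), against -0.005 over all genes tested. With DESeq2 and at an unadjusted p under 0.05 the counts were likewise 28 lower and 0 higher. This list, like the other lists below, was chosen with earlier results of these data known. Its counts are therefore no independent support. The summed level of the list was 447, 622 and 729 CPM in the asil1-1 libraries, against 3890, 4300 and 5410 CPM in the libraries labelled asil2-1.

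Among the WRKY factors, transcription factors of defence and stress responses, WRKY40 was at 4.90, 6.09 and 7.38 CPM in asil1-1 and at 163, 179 and 216 CPM in the libraries labelled asil2-1 (-4.93 ± 0.16, adjusted p = 1.86e-07). WRKY53, also linked to leaf senescence, was at 1.82, 3.90 and 2.28 CPM in asil1-1 against 77.0, 85.8 and 119 CPM in the libraries labelled asil2-1 (-5.12 ± 0.29, adjusted p = 2.62e-05). Neither gene overlapped between the groups, and in Col-0 both were nearer to asil1-1, at 8.36 and 4.34 CPM on average. WRKY33, which drives camalexin synthesis, had a log2 difference of -3.88 ± 0.23, and WRKY46, WRKY11, WRKY18 and WRKY22 lay between -3.20 and -1.76.

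SZF1 and CZF1 encode CCCH zinc-finger proteins known from salt stress and immune responses. SZF1 was at 34.4, 42.2 and 40.4 CPM in asil1-1, against 535, 584 and 755 CPM in the libraries labelled asil2-1 (-3.98 ± 0.15, adjusted p = 3.47e-07). CZF1 was at 37.4, 57.7 and 67.8 CPM in asil1-1 against 447, 485 and 605 CPM in the libraries labelled asil2-1 (-3.23 ± 0.23, adjusted p = 9.68e-05). In both genes the highest asil1-1 library was far below the lowest library labelled asil2-1. PUB22 and PUB23, U-box ubiquitin ligases that dampen immune signalling, differed by -2.22 ± 0.12 (adjusted p = 9.63e-07) and -2.63 ± 0.13 (adjusted p = 5.9e-07), and their relative PUB24 by -2.10 ± 0.20.

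The W-box, the sequence that WRKY factors are known to bind, was searched as TTGACC or TTGACT on both strands in the 250 bases before each annotated start. It was present in 13 of the 30 tested regulators (43.3%), in 94 of 197 genes lower by at least 4-fold with a window (47.7%), in 19 of 58 genes higher by at least 4-fold (32.8%) and in 28.0% of 17906 genes tested. Windows of the 4 regulators that hold both letter sequences, picked for that alone, are printed from RefSeq's TAIR10.1, 5′ to 3′ on the strand of the gene. Other regulators called lower, such as WRKY40 and ERF6, had neither sequence in the window. Capitals mark each match: on the printed strand as TTGACC or TTGACT, and on the other strand as GGTCAA or AGTCAA. SZF1 lies at chr3:20775970-20776219 (plus strand), CZF1 at chr2:16771747-16771996 (plus strand), WRKY33 at chr2:16107985-16108234 (plus strand) and PUB23 at chr2:15084560-15084809 (minus strand).
SZF1: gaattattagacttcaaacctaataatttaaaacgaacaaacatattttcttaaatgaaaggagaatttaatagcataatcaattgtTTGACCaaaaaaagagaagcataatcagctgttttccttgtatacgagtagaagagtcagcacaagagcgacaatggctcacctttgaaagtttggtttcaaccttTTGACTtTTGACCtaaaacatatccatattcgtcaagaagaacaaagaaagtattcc
CZF1: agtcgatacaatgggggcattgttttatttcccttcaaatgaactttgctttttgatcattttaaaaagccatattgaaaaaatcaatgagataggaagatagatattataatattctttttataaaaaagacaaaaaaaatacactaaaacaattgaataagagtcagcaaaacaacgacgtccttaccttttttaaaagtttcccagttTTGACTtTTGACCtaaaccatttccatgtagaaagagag
WRKY33: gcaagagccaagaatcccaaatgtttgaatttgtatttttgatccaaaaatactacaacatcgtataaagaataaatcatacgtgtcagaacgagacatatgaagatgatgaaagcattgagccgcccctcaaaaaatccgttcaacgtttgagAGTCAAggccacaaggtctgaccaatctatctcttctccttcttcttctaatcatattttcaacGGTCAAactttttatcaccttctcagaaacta
PUB23: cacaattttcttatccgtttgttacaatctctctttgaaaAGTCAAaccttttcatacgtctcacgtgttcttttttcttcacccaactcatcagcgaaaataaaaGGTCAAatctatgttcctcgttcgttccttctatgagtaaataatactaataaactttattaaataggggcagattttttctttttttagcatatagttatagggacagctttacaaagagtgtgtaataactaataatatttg
In SZF1 and CZF1 a TTGACT and a TTGACC stood next to each other, 1 base apart. The GT-box letters GTGATT were in 6 of the 30 regulators and in 15.8% of all genes tested, and the letters CGCGTT, known as a rapid stress response element, were in 2 of the 30 (6.67%) and in 2.71%. The G-box letters CACGTG were in 13.3% of the regulators and in 7.34% of all genes. In the 20 photosystem genes described below, of which none was lower, GTGATT was in 5, CGCGTT in 2, CACGTG in 3 and the W-box in 3, so that the shares for the first 3 of these were no lower than in the regulators. These are letter matches in a fixed window and do not show binding.

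The ethylene response factors of the list were as far apart. ERF5 was at 3.24, 3.62 and 6.44 CPM in asil1-1 and 87.4, 109 and 144 CPM in the libraries labelled asil2-1 (-4.72 ± 0.29, adjusted p = 5.48e-05). ERF6 was at 4.74, 10.5 and 14.4 CPM in asil1-1 against 177, 200 and 275 CPM in the libraries labelled asil2-1 (-4.51 ± 0.40, adjusted p = 0.000773). Within asil1-1 replicate 1 was lowest and replicate 3 highest for both, and the same held for ERF104 (-2.23 ± 0.36), ERF105 (-3.63 ± 0.51), the C2H2 zinc-finger factors ZAT10 (-3.28 ± 0.55) and ZAT12 (-2.66 ± 0.36). ACS6, an enzyme of ethylene synthesis, was at 4.03, 5.90 and 7.25 CPM in asil1-1, against 75.6, 99.2 and 102 CPM in the libraries labelled asil2-1 (-4.04 ± 0.20, adjusted p = 3.65e-06). ACS2, another ethylene synthesis gene, stayed at or under 1.80 CPM in all 6 libraries and was not called (-0.44 ± 0.51, adjusted p = 0.574).

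The touch genes TCH2 and TCH3, calmodulin-like calcium sensors, and TCH4, a xyloglucan-modifying enzyme of the cell wall, were lower, with log2 differences of -1.63 ± 0.10, -2.30 ± 0.26 and -2.12 ± 0.14. CML37, a further calmodulin-like gene, was at 0, 0.286 and 0.403 CPM in asil1-1, which is 6 counts in all, against 2.98, 5.61 and 5.6 CPM in the libraries labelled asil2-1 (-4.49 ± 0.59, adjusted p = 0.000316). MPK3, a mitogen-activated protein kinase of immune signalling, was at 75.5, 105 and 87.6 CPM in asil1-1 and 271, 349 and 439 CPM in the libraries labelled asil2-1 (-1.96 ± 0.20, adjusted p = 0.000378). Of the cold-response factors, CBF1 (-2.26 ± 0.44) and CBF2 (-2.10 ± 0.25) were called lower and CBF3 was not (-0.33 ± 0.40, adjusted p = 0.60), all 3 being under 8 CPM in every library. In Col-0 the called regulators averaged between 0.451 CPM (CML37) and 143 CPM (TCH3). In asil1-1 asil2-1 they averaged between 0.31 CPM (RRTF1) and 297 CPM (TCH3), below the mean of the libraries labelled asil2-1 for every called member. After correction for transcript length 28 members were again called lower, and with 1 library left out the only call lost was that of ZAT10, without asil2-1 replicate 1 or 2.

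**Figure D2:**
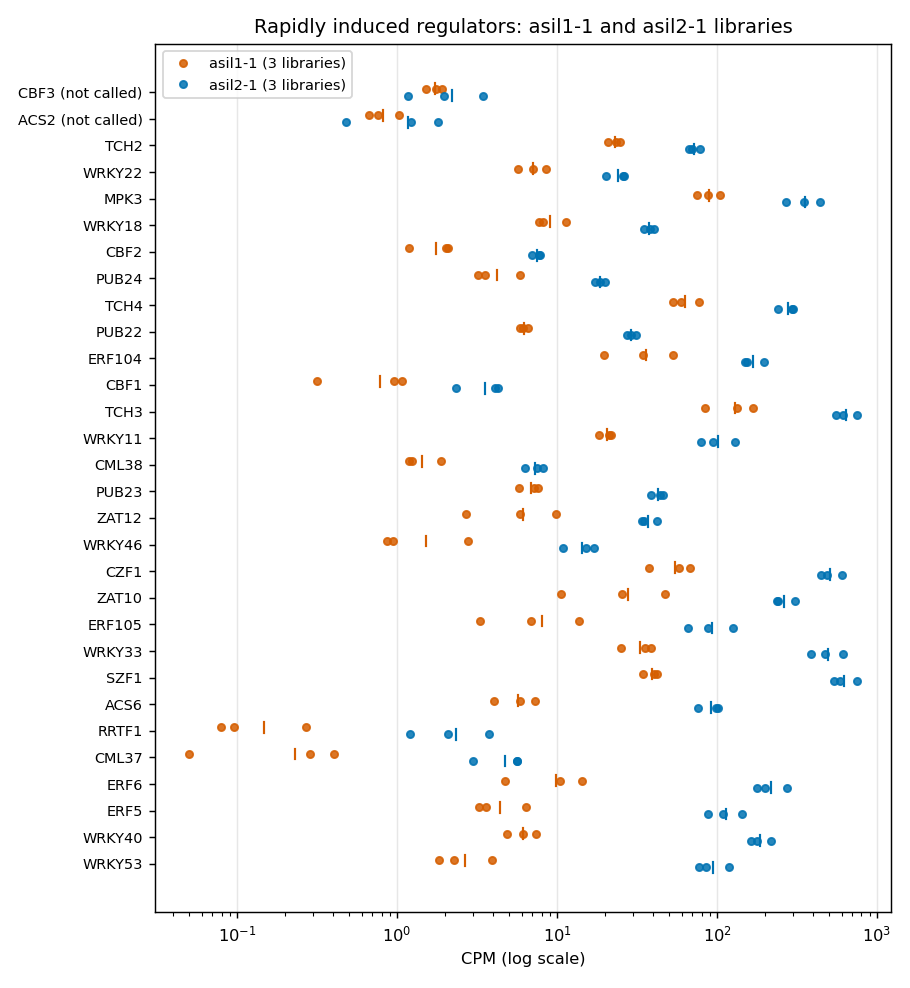
Level in CPM (log axis) of the 30 tested rapidly induced regulators in each asil1-1 library (orange) and each library labelled asil2-1 (blue), with bars at the group means and genes ordered by their log2 difference. The points of the 28 called genes do not overlap between the groups, and the value of CML37 at 0 CPM is drawn at 0.05 CPM.

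Where genes of abscisic acid, jasmonate and salicylate were called, they were lower in asil1-1. Abscisic acid is the hormone of drought and seed dormancy, and 3 of the 8 tested genes of its synthesis and breakdown were lower in asil1-1 (11.3% of all genes were) and none higher, by edgeR, by DESeq2 and at an unadjusted p under 0.05 alike. CYP707A3, a hydroxylase that breaks the hormone down, was at 1.26, 0.952 and 1.61 CPM in asil1-1 and at 48.7, 55.8 and 66.4 CPM in the libraries labelled asil2-1. This was the smallest p of any gene with a symbol (-5.49 ± 0.19, adjusted p = 1.04e-07), and the Col-0 and asil1-1 asil2-1 means were 2.89 and 23.0 CPM. NCED3, which makes the hormone under drought, was at 2.92, 2.57 and 0.805 CPM in asil1-1, against 11, 20.1 and 34.3 CPM in the libraries labelled asil2-1 (-3.26 ± 0.57, adjusted p = 0.00882). The list median was -0.33, and CYP707A1, a relative of CYP707A3, had a log2 difference of -1.19 ± 0.34, a call lost without asil1-1 replicate 1 or 2 or asil2-1 replicate 2 or 3. CYP707A2, another relative, was not called (-0.40, adjusted p = 0.152). Of 16 tested genes of abscisic acid signalling and output, 6 were lower, against 11.3% of all genes, and none higher by edgeR, and the counts were the same by DESeq2 and at an unadjusted p under 0.05. They were COR15A, a cold-regulated chloroplast protein (-0.81 ± 0.27), and 5 phosphatases that hold the pathway in check, ABI1 (-0.73 ± 0.12), PP2CA (-1.19 ± 0.22), HAB2 (-0.36 ± 0.09), HAI1 (-1.38 ± 0.37) and HAI2 (-3.18 ± 0.60). The call of HAB2 was lost with the length correction, that of HAI1 without asil1-1 replicate 2 or 3 or asil2-1 replicate 3, and that of COR15A without any 1 library other than asil1-1 replicate 1.

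Of 23 tested jasmonate genes, 8 were lower in asil1-1, against 11.3% of all genes, and none was called higher, with 2 higher at an unadjusted p under 0.05 and 1 by DESeq2. JAZ1, a repressor of the jasmonate response that the hormone itself induces, was at 8.06, 12.6 and 12.1 CPM in asil1-1, against 48.5, 51.5 and 52.0 CPM in the libraries labelled asil2-1 (-2.22 ± 0.14, adjusted p = 3.65e-06). MYC2, the central activator of the response, was at 40.2, 48.2 and 50.1 CPM in asil1-1 and 113, 145 and 137 CPM in the libraries labelled asil2-1 (-1.50 ± 0.11, adjusted p = 1.03e-05). The lipoxygenases LOX3 (-2.12 ± 0.30) and LOX4 (-3.59 ± 0.45), which start jasmonate synthesis, were lower too. The others were the synthesis gene AOC3 (-1.61 ± 0.41) and the repressors JAZ5 (-1.60 ± 0.39), JAZ6 (-0.53 ± 0.13) and JAZ2 (-0.38 ± 0.12), each of whose calls was lost without asil2-1 replicate 2. The calls of AOC3 and JAZ6 were lost also without asil1-1 replicate 1 or 3. Among the fits without 1 library, JAZ2 was called only in that without asil2-1 replicate 3. The count of 8 was 5 without asil1-1 replicate 3 and 4 without asil2-1 replicate 2.

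Of 15 tested salicylate genes, 5 were lower in asil1-1, against 11.3% of all genes, and none higher by edgeR or DESeq2, with 1 higher at an unadjusted p under 0.05. The transcriptional activator CBP60G was at 6.56, 12.9 and 8.05 CPM in asil1-1, against 59.6, 68.3 and 80.9 CPM in the libraries labelled asil2-1 (-2.91 ± 0.24, adjusted p = 0.000126). NPR3, a salicylate receptor (-1.44 ± 0.09), SAG101 (-1.17 ± 0.12) and EDS1 (-0.80 ± 0.15), partners in immune signalling, and NPR1 (-0.44 ± 0.09), a coactivator of defence genes, were the others. Outputs of the pathway stood apart in 1 library: PR2, a glucanase, was at 1.19, 69.8 and 1.74 CPM in asil1-1 replicates 1, 2 and 3, against 7.40, 3.23 and 2.16 CPM in the libraries labelled asil2-1, and was not called (adjusted p = 0.366). Without asil1-1 replicate 2 the list count was 8 lower.

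MYB51, the activator of indolic glucosinolate synthesis, was at 6.88, 9.42 and 9.93 CPM in asil1-1 and 78.2, 79.8 and 92.2 CPM in the libraries labelled asil2-1 (-3.26 ± 0.13, adjusted p = 2.54e-07). CYP81F2, which modifies indolic glucosinolates (-3.00 ± 0.23, adjusted p = 9.06e-05), and the synthesis gene CYP79B3 (-0.53 ± 0.15) were lower too. Of the other 19 tested glucosinolate genes only ESM1, a modifier of glucosinolate breakdown, was called (0.31 ± 0.09), and the list median was 0.11. The 3 lower and 1 higher of 22 stand beside 11.3% and 15.5% of all genes. Without 1 library the calls of CYP79B3 (asil1-1 replicate 1 or 3, asil2-1 replicate 2) and of ESM1 (asil1-1 replicate 2, asil2-1 replicate 2 or 3) were lost, and 3 genes were higher without asil1-1 replicate 3 and 2 without asil2-1 replicate 1. CYP79B3 was not called with the length correction, and with the score of root markers described below in the model 8 of the 22 genes were higher.

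Of 12 tested heat stress factors and chaperones, 2 were lower and 1 was higher, beside 11.3% and 15.5% of all genes. The heat stress factors HSFA4A (-2.51 ± 0.12, adjusted p = 3.63e-07) and HSFB2A (-1.36 ± 0.23) were lower, and the coactivator MBF1C (0.89 ± 0.16) was higher. The count of 1 higher was 2 without asil1-1 replicate 1 or asil2-1 replicate 1, while 4 were lower with the root score. Of 13 genes of the unfolded protein response, 3 were lower and 3 higher, beside the same shares of all genes. The membrane-linked factor NAC062 (-2.0 ± 0.11, adjusted p = 9.63e-07), BZIP60 (-1.06 ± 0.11) and BZIP28 (-0.32 ± 0.08) were lower. BZIP17 (0.48 ± 0.10), the chaperone BIP1 (0.38 ± 0.10) and its partner ERDJ3B (0.30 ± 0.08) were higher, a count of 3 that was 1 without asil1-1 replicate 2 or without asil2-1 replicate 2. With the length correction BZIP28 and ERDJ3B were not called. The call of BZIP28 was lost without asil1-1 replicate 2, and that of BIP1 also without asil1-1 replicate 3 or asil2-1 replicate 3.

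The genes with a symbol that were lower by the largest log2 difference outside the lists were of the same size. The zinc-finger gene ZAT11 was at 0.158, 0.381 and 0 CPM in asil1-1 (6 counts in all), against 4.42, 11.2 and 14.9 CPM in the libraries labelled asil2-1 (-5.62 ± 0.74). PP2-B13, a lectin-related F-box gene, was at 0.395, 0.762 and 0.805 CPM in asil1-1 against 19.7, 30.3 and 39.9 CPM in the libraries labelled asil2-1 (-5.55 ± 0.40), and its neighbour PP2-B14 differed by -5.05 ± 0.34. DIC2, a mitochondrial dicarboxylate carrier, was at 6.96, 11.7 and 19.7 CPM in asil1-1, against 258, 270 and 347 CPM in the libraries labelled asil2-1 (-4.55 ± 0.36). That these genes did not overlap between the groups was part of the rule that named them. Each had a Col-0 mean nearer to asil1-1 (0.26 CPM for ZAT11, 1.13 CPM for PP2-B13, 0.661 CPM for PP2-B14 and 24.4 CPM for DIC2). The ubiquitin ligase gene PUB19 (-4.56 ± 0.38) and the cytochrome P450 gene CYP706A2 (-4.18 ± 0.43) followed. Among the smallest p were the purine permease PUP18 (-2.28 ± 0.10), the glycosyltransferase-like GATL10 (-3.39 ± 0.16) and the exocyst subunit EXO70H7 (-1.86 ± 0.09), all with an adjusted p under 0.05 also after length correction.

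**Figure D3:**
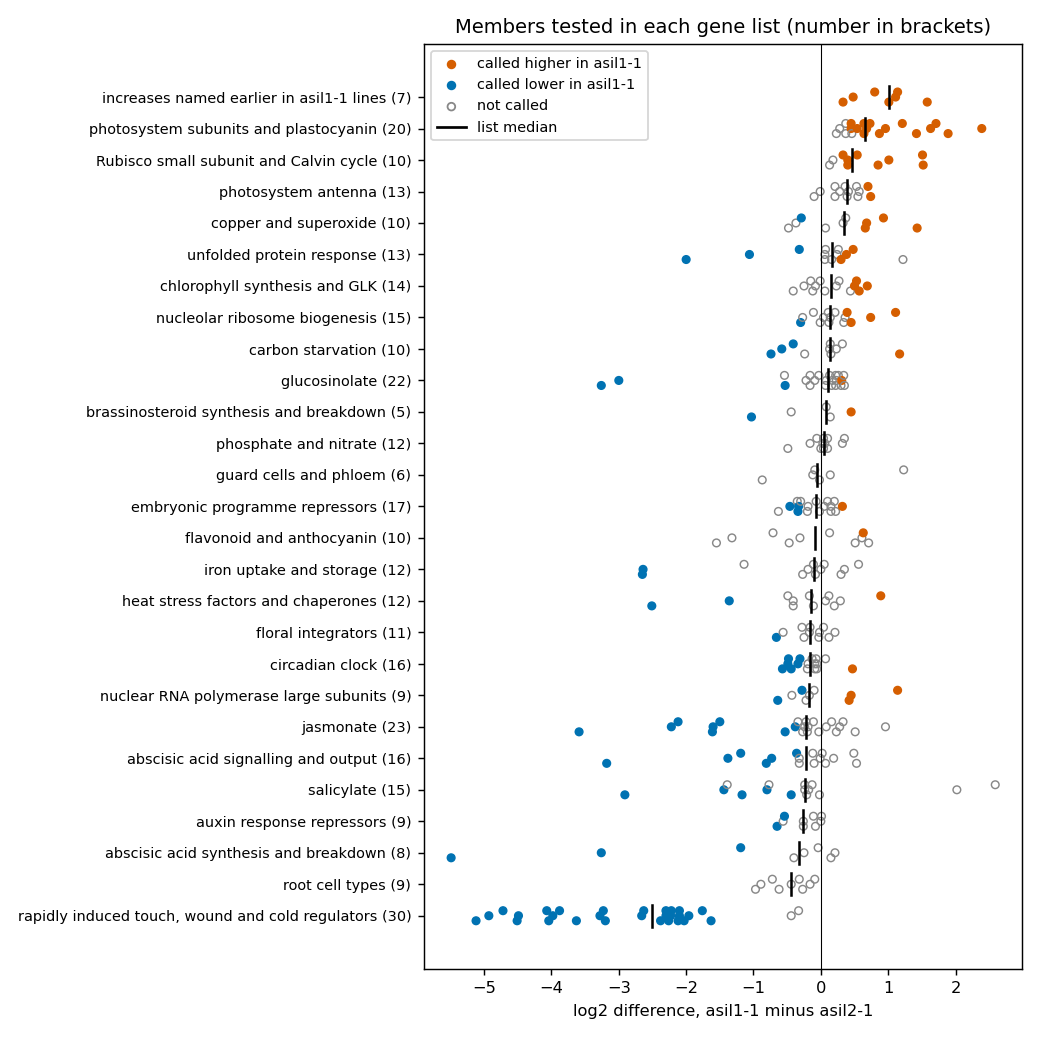
Log2 difference, asil1-1 minus asil2-1, of each tested member of 27 gene lists, with called members filled (orange higher, blue lower in asil1-1), other members open, and a bar at the list median. The rapidly induced regulators lie far to the left with a median of -2.50, and the photosystem subunits to the right with a median of 0.66.

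Many nuclear photosynthesis genes were higher in asil1-1. These genes encode the chlorophyll-binding antenna, the photosystems, the electron carrier plastocyanin and the enzymes that fix carbon dioxide. Of 20 photosystem subunits and carriers, 15 were higher and none lower by edgeR, against 15.5% of all genes higher. By DESeq2 and at an unadjusted p under 0.05 the counts were 19 higher and 0 lower, and the median was 0.66 (range 0.23 to 2.39).

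OHP, a one-helix protein of photosystem assembly, was at 100, 82.7 and 87.5 CPM in asil1-1, against 17.1, 16.4 and 19.0 CPM in the libraries labelled asil2-1 (2.39 ± 0.10, adjusted p = 2.54e-07). DRT112, a plastocyanin, was at 3490, 2730 and 2720 CPM in asil1-1 and 726, 809 and 908 CPM in the libraries labelled asil2-1 (1.89 ± 0.13, adjusted p = 4.4e-06). PSBR, a photosystem II subunit, was at 7150, 5860 and 6300 CPM in asil1-1 against 1840, 2030 and 2430 CPM in the libraries labelled asil2-1 (1.63 ± 0.13, adjusted p = 1.23e-05). All 3 were without overlap, and their Col-0 means of 92.0, 3450 and 7590 CPM were near those of asil1-1. The photosystem I subunit PSAH-1 followed with 1.71 ± 0.14, and the other 11 called members lay between 0.45 and 1.42, of which PSAL (0.45 ± 0.12) was not called without asil1-1 replicate 1 or 2. Many of these transcripts are short, and with the length correction 8 of the 20 were called, OHP at 1.43 and DRT112 at 1.74.

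The light-harvesting antenna differed less. Of 13 antenna genes, LHCB4.1 (0.74 ± 0.11, adjusted p = 0.000751) and LHCA2 (0.70 ± 0.14, adjusted p = 0.00322) were higher and none was lower, with 4 higher by DESeq2 or at an unadjusted p under 0.05. These 2 of 13 stand beside 15.5% of all genes higher. LHCA1 was at 3730, 2770 and 2630 CPM in asil1-1 and at 1550, 2380 and 2390 CPM in the libraries labelled asil2-1 (0.55 ± 0.20, adjusted p = 0.0703). The libraries of a group spread widely, with asil1-1 replicate 1 highest and asil2-1 replicate 1 lowest for LHCA1, and the groups did not overlap in 4 of the 13 genes, against 42.9% of all genes. The 3 libraries labelled asil2-1 also differed in root markers, which were lowest in replicate 1 (mean log2 deviation -0.698, against 0.674 and 0.505 in replicates 2 and 3, and 0.178, -0.25 and -0.41 in asil1-1). With that root score in the model, 11 antenna genes were called higher. LHCB1.1 and LHCB1.3 are near-identical copies, so the split of reads between them is uncertain.

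Of 10 genes of Rubisco and the Calvin cycle, which fix carbon dioxide, 8 were higher and none lower in asil1-1 by edgeR, DESeq2 and at an unadjusted p under 0.05, against 15.5% of all genes higher. The small subunit gene RBCS1A was at 12600, 10900 and 11700 CPM in asil1-1, against 6380, 6310 and 7030 CPM in the libraries labelled asil2-1 (0.85 ± 0.12, adjusted p = 0.000321). RBCS1B, RBCS2B and RBCS3B were higher by 1.51 ± 0.12, 1.01 ± 0.13 and 1.52 ± 0.15, and as near-identical copies next to each other their single values are uncertain. The sum of the list was 49600, 43000 and 45800 CPM in asil1-1, against 30400, 29100 and 32700 CPM in the libraries labelled asil2-1. Beyond Rubisco, its activase RCA (0.40 ± 0.11), FBA2 (0.54 ± 0.10), GAPB (0.40 ± 0.10) and SBPASE (0.33 ± 0.10) differed less. The count of 8 was 5 without asil2-1 replicate 2, when RCA, GAPB and SBPASE were lost, and the calls of RCA and SBPASE were lost also without asil1-1 replicate 1 or 3 or asil2-1 replicate 3, that of SBPASE also with the length correction.

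GLK1 and GLK2, the paired activators of chloroplast development, were both higher in asil1-1. GLK2 was at 177, 186 and 176 CPM in asil1-1, against 108, 110 and 121 CPM in the libraries labelled asil2-1 (0.69 ± 0.08, adjusted p = 7.69e-05), and GLK1 differed by 0.57 ± 0.13. Of the 12 tested chlorophyll synthesis genes listed with them, the methyltransferase CHLM (0.53 ± 0.08) and the regulator GUN4 (0.50 ± 0.11) were higher and none was lower by edgeR, DESeq2 or at an unadjusted p under 0.05. With GLK1 and GLK2 that gave 4 higher of 14, beside 15.5% of all genes. GUN4 was not called with the length correction (0.33), and the 4 higher genes of the list became 7 with the root score.

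**Figure D4:**
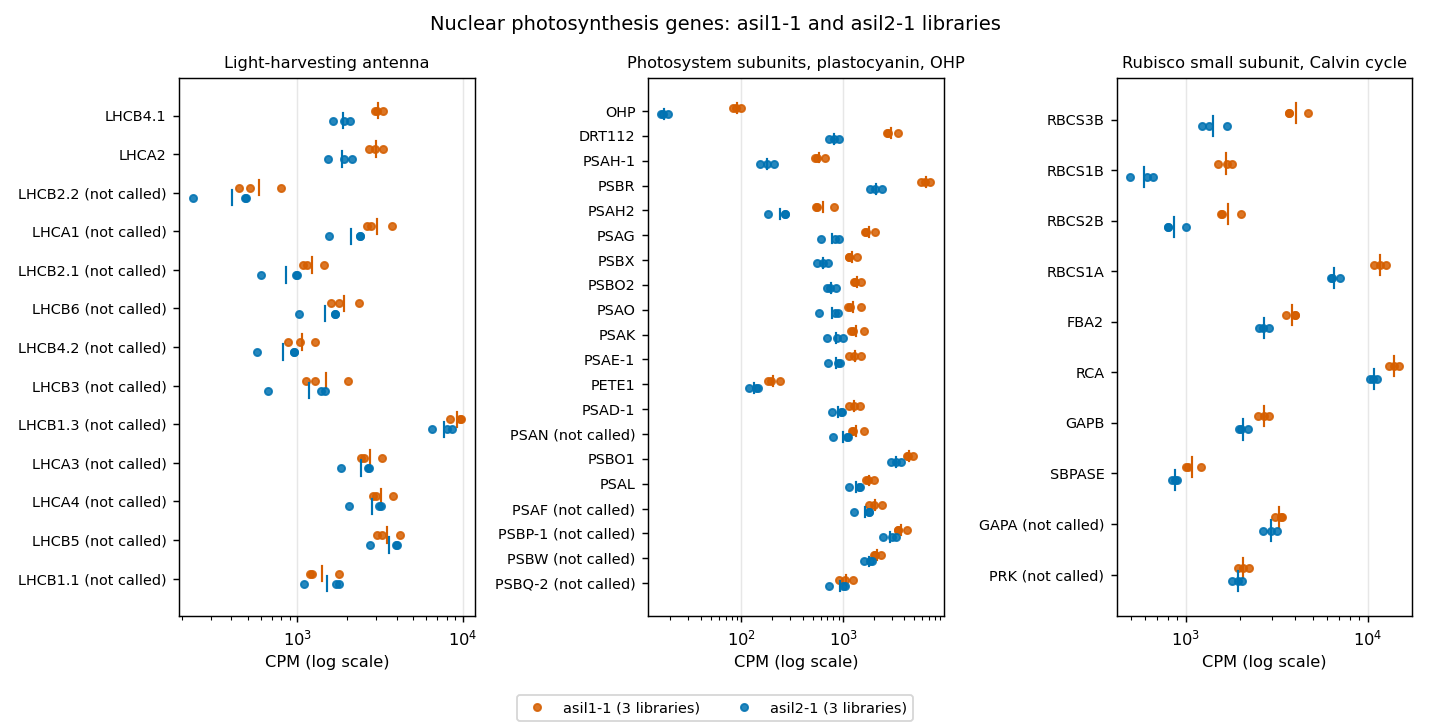
Level in CPM (log axis) of nuclear genes of the light-harvesting antenna (left), the photosystems, plastocyanin and OHP (middle) and Rubisco and the Calvin cycle (right) in each asil1-1 library (orange) and each library labelled asil2-1 (blue), with bars at the group means. The groups do not overlap in 18 of 20 photosystem genes and 8 of 10 Rubisco and Calvin cycle genes, with asil1-1 higher, or in 4 of 13 antenna genes, against 42.9% of all genes.

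Several copper proteins were higher as well. The copper chaperone CCH was at 228, 184 and 198 CPM in asil1-1 and 66.5, 80.8 and 82.4 CPM in the libraries labelled asil2-1 (1.43 ± 0.11, adjusted p = 8.49e-06). The copper importer COPT1 (0.66 ± 0.08) and the copper-zinc superoxide dismutases CSD2 (0.93 ± 0.13) and CSD1 (0.68 ± 0.18) were higher, while SPL7, the regulator of copper deficiency genes, was lower (-0.29 ± 0.09). That gave 4 higher and 1 lower of 10 tested, against 15.5% and 11.3% of all genes. With the length correction CSD2 was at 0.59, CSD1 at 0.17 (adjusted p = 0.617) and SPL7 at -0.15, the last 2 no longer called. The calls of CSD1 and SPL7 were lost without asil1-1 replicate 2 or 3 or asil2-1 replicate 3, that of SPL7 also without asil2-1 replicate 2. By DESeq2, 5 copper genes were higher and 0 lower. Of 12 tested iron genes, the root iron importer IRT1 (-2.64 ± 0.43) and its ferric reductase FRO2 (-2.65 ± 0.43) were lower and none was called higher, with 0 higher at an unadjusted p under 0.05 and 1 by DESeq2. These 2 lower of 12 stand beside 11.3% of all genes. IRT1 was at 0.395, 0.571 and 1.74 CPM in asil1-1, against 4.96, 4.44 and 6.25 CPM in the libraries labelled asil2-1, all far below the Col-0 mean of 23.1 CPM. In a fit of all 21 libraries neither iron gene was called, and with the root score 2 iron genes were higher.

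Root markers, which report root tissue in the harvested seedlings, were not called. Of 17 listed genes 9 were tested, and 0 differed by edgeR, beside 26.8% of all genes called. Likewise 0 differed by DESeq2 and 0 at an unadjusted p under 0.05. All 9 log2 differences were nevertheless negative (median -0.44, range -0.97 to -0.09), so the lack of calls does not show equal root content. Their summed level was 107, 94.8 and 89.5 CPM in asil1-1, against 104, 115 and 120 CPM in the libraries labelled asil2-1. The endodermal gene CASP1 shows the spread between libraries of 1 group, at 3.48, 1.81 and 2.15 CPM in asil1-1 and 0.271, 5.50 and 4.24 CPM in the libraries labelled asil2-1. Without asil2-1 replicate 1, 3 root markers were called lower in asil1-1. The part of root tissue in the iron and antenna values was not tested beyond the fit with the root score.

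A set of 7 genes that earlier work on these same libraries named as increased in asil1-1 lines was higher here in all 7 cases, which is no independent support because the list was chosen on these samples. CS26, a chloroplast enzyme of the cysteine synthase family, was at 51.1, 45.3 and 53.0 CPM in asil1-1, against 18, 16.1 and 16.7 CPM in the libraries labelled asil2-1 (1.58 ± 0.10, adjusted p = 1.89e-06). PWP2, a nucleolar factor of ribosome assembly, was at 56.3, 59.8 and 66.3 CPM in asil1-1 and 30.8, 27.9 and 26.7 CPM in the libraries labelled asil2-1 (1.11 ± 0.09, adjusted p = 1.23e-05). Neither overlapped, and in contrast to the photosynthesis genes the Col-0 means (17.3 and 22.3 CPM) were on the side of the libraries labelled asil2-1, with asil1-1 asil2-1 at 66.4 and 60.4 CPM. NRPC2 of RNA polymerase III (1.14 ± 0.11), PDE340 (1.01 ± 0.10), the plastid protein FTSH12 (0.80 ± 0.07), MAA3 (0.48 ± 0.12) and GATB (0.33 ± 0.07) were the others, MAA3 not being called without asil1-1 replicate 3 or asil2-1 replicate 2.

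The other listed genes of ribosome assembly and RNA polymerases were split. Of 15 nucleolar genes, PWP2, RID2 (0.74 ± 0.16), the pseudouridine synthase NAP57 (0.45 ± 0.07) and TOZ (0.39 ± 0.11) were higher and SMO4 (-0.30 ± 0.09) lower. These 4 higher and 1 lower stand beside 15.5% and 11.3% of all genes. Of 9 tested large subunits of nuclear RNA polymerases, 3 were higher and 2 lower, beside the same shares. The RNA polymerase I subunits NRPA1 (0.45 ± 0.09) and NRPA2 (0.42 ± 0.08) were higher with NRPC2, while NRPB1 of polymerase II (-0.28 ± 0.08) and NRPC1 of polymerase III (-0.64 ± 0.16) were lower. Those 2 lower calls and that of SMO4 were not made with the length correction, and NRPB1 was not called without asil1-1 replicate 1 or 2 or asil2-1 replicate 1 or 3. TOZ was not called without asil1-1 replicate 2 or 3 or asil2-1 replicate 2 or 3, SMO4 was called only with all libraries or without asil2-1 replicate 3, and in that last fit and with the root score 2 nucleolar genes were lower. By DESeq2, 4 nucleolar genes were higher and 0 lower.

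Genes of the embryonic programme, the process for which ASIL1 is known, could be tested only in part. Of 20 listed seed maturation genes 2 passed the filter, and neither was called by edgeR or DESeq2 or had an unadjusted p under 0.05: WRI1, a regulator of oil synthesis (0.04 ± 0.19), and DOG1, a dormancy gene (0.24 ± 0.25). The summed level of the listed seed genes was 8.77, 9.81 and 8.99 CPM in asil1-1, against 8.12, 9.41 and 7.85 CPM in the libraries labelled asil2-1, so levels of storage protein and oil body transcripts were at or near the detection limit (3 counts correspond to 0.164 to 0.373 CPM). Of 17 repressors of the embryonic programme, the Polycomb genes EMF1 (-0.46 ± 0.08), SWN (-0.34 ± 0.08) and EMF2 (-0.33 ± 0.09) were lower and the histone deacetylase HDA19 (0.32 ± 0.07) was higher. These 4 of 17 stand beside 26.8% of all genes called. With the length correction 0 were lower by edgeR and 2 were higher, and EMF2 was not called without asil1-1 replicate 1 or asil2-1 replicate 1 or 3.

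Single growth regulators also differed. CPD, an enzyme of brassinosteroid synthesis, was at 120, 138 and 131 CPM in asil1-1, against 281, 258 and 264 CPM in the libraries labelled asil2-1 (-1.03 ± 0.08, adjusted p = 9.69e-06). ROT3 of the same pathway was higher (0.45 ± 0.12), a call not made by DESeq2 and lost without asil1-1 replicate 2 or 3 or asil2-1 replicate 3. These 1 lower and 1 higher of 5 tested stand beside 11.3% and 15.5% of all genes. The floral integrator SOC1 was lower, at 57.2, 49.1 and 53.1 CPM in asil1-1 against 91.1, 81.0 and 84.1 CPM in the libraries labelled asil2-1 (-0.66 ± 0.08, adjusted p = 0.000215). It was the 1 gene called of 11 floral integrators, beside 26.8% of all genes called. CPD and SOC1 did not overlap between the groups, and Col-0 was near the libraries labelled asil2-1 for CPD (276 CPM) and near asil1-1 for SOC1 (58.5 CPM). The auxin response repressors IAA2 (-0.54 ± 0.10) and IAA17 (-0.65 ± 0.16) were lower among 9 tested, beside 11.3% of all genes. IAA17 was called only with all libraries or without replicate 1 of either group, and without asil2-1 replicate 1 the count of lower genes was 4. Of 10 carbon starvation genes, SEN1 was higher (1.17 ± 0.18) and the trehalose phosphate synthase family genes TPS8 (-0.74 ± 0.09), TPS11 (-0.58 ± 0.07) and TPS9 (-0.41 ± 0.12) were lower. The 1 higher and 3 lower genes stand beside 15.5% and 11.3% of all genes. TPS9 was not called with the length correction or without asil1-1 replicate 1 or 2 or asil2-1 replicate 1 or 3, and the 1 higher gene became 2 without asil1-1 replicate 1 and 3 without asil2-1 replicate 1.

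Of 16 tested clock genes, 6 were lower, against 11.3% of all genes, among them PRR5 (-0.57 ± 0.12), PRR7 (-0.48 ± 0.12) and GI (-0.34 ± 0.10), and LUX was higher (0.47 ± 0.14). PRR5 was called in every fit without 1 library and with the length correction, and PRR7 in 5 of the 6 fits without 1 library. With the length correction neither PRR7 (-0.32, adjusted p = 0.0854) nor GI (-0.13, adjusted p = 0.396) was called. The call of GI was lost also without asil1-1 replicate 2 or 3 or asil2-1 replicate 2. LUX was called only with all libraries or without replicate 1 of either group. The count of 6 was 1 without asil1-1 replicate 2, 2 without asil1-1 replicate 3, 2 without asil2-1 replicate 2, 3 without asil2-1 replicate 3 and 2 with the length correction. It was 3 in the fit of all 21 libraries and 1 with the replicate number as a block. Of 10 tested flavonoid and anthocyanin genes, only TT5 was called (0.63 ± 0.21, adjusted p = 0.0494), beside 26.8% of all genes called. That call held in 1 of the 6 fits without 1 library and not with DESeq2 or the length correction. No member of the 12 tested phosphate and nitrate genes was called by edgeR or DESeq2, with 1 lower at an unadjusted p under 0.05.

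The genes higher by the largest log2 difference included several small membrane and mitochondrial proteins. TIM8, an import chaperone of mitochondria, was at 27.2, 21.6 and 21.3 CPM in asil1-1 and 4.24, 4.60 and 4.56 CPM in the libraries labelled asil2-1 (2.41 ± 0.15). OEP7, an outer envelope protein of chloroplasts, was at 5.69, 6.0 and 6.31 CPM in asil1-1 against 1.08, 0.529 and 0.721 CPM in the libraries labelled asil2-1 (3.01 ± 0.30). FER2, a ferritin, was at 3.48, 2.67 and 3.09 CPM in asil1-1 against 0.271, 0.370 and 0.480 CPM in the libraries labelled asil2-1 (3.02 ± 0.38). Absence of overlap was part of the rule that named these 3 genes. They differed in Col-0, where TIM8 (26.5 CPM) and OEP7 (4.75 CPM) were near asil1-1 and FER2 (0.895 CPM) was lower. The succinate dehydrogenase subunits SDH3-2 (3.27 ± 0.42), SDH3-1 (2.69 ± 0.44) and SDH8 (2.14 ± 0.14) were higher too, as were the lipid transfer protein gene LTP (2.22 ± 0.12) and SHL1, which encodes a PHD-finger chromatin protein. SDH3-2 and SDH3-1 rested on few counts, 84 and 69 in all in asil1-1 against 12 and 15 in the libraries labelled asil2-1. SHL1 was at 61.0, 55.8 and 63.7 CPM in asil1-1, against 17.0, 16.4 and 16.0 CPM in the libraries labelled asil2-1 (1.89 ± 0.09). With the length correction SHL1 was at 1.82, LTP at 2.35, FER2 at 2.76, SDH3-2 at 2.98 and SDH3-1 at 2.65, while OEP7 (2.13), TIM8 (1.69) and SDH8 (1.18) were smaller. TOM7-2, an import translocase subunit with the largest difference of the higher genes that the naming rule picked (3.36 ± 0.68), was not called with the length correction (2.09, adjusted p = 0.0681). Its value rests on 32 counts in asil1-1 and 4 in the libraries labelled asil2-1 (0, 0.106 and 0.16 CPM), near the detection limit.

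Transcript length moved with the comparison. Across 17907 genes the rank correlation of the log2 difference with exonic length was -0.44, a description across genes, which are not independent. The shortest transcripts (up to 800 nt) had a median log2 difference of 0.72 and the longest (over 4000 nt) one of -0.23, and 54.8% of the shortest class were called higher while 35.7% of the longest were called lower. The libraries of each group were alike: the median deviation of long minus short transcripts was -0.50, -0.42 and -0.46 in asil1-1, and 0.51, 0.46 and 0.39 in the libraries labelled asil2-1. Deviations were taken from each gene's mean over these 6 libraries, which puts a difference between the groups on both sides of 0. The signs therefore do not show which group departs. With each library's length trend removed, the rank correlation was 0.02, and 1675 genes (9.31%) were higher and 1572 (8.74%) lower. Among the calls made without the correction, 1470 of 2782 higher and 1193 of 2036 lower genes were called again in the same direction, and 210 and 14 changed sign. The trend follows the groups in all 6 libraries, so trend and genotype cannot be told apart.

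**Figure D5:**
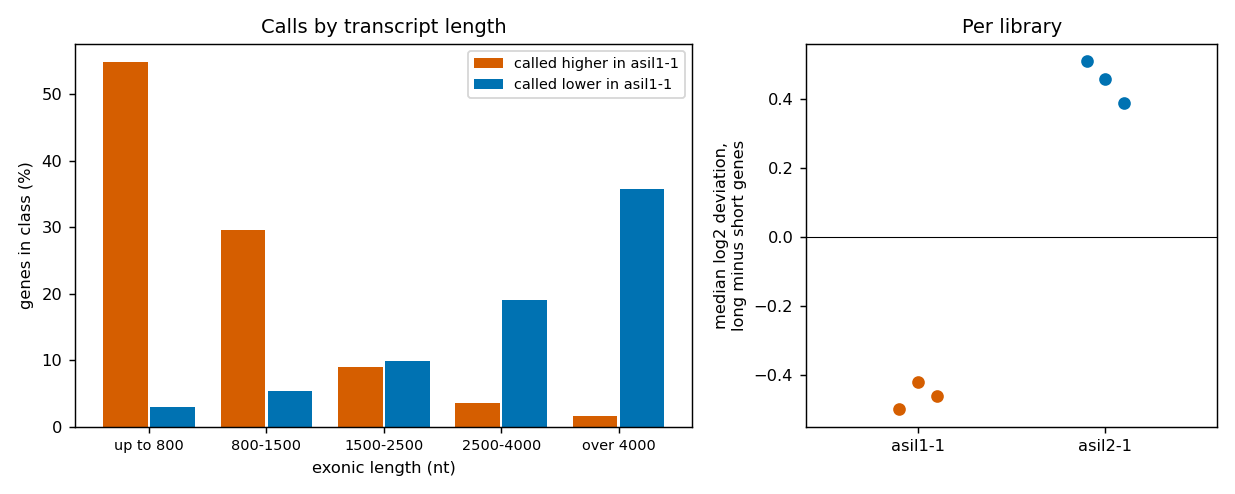
Left, share of genes called higher (orange) and lower (blue) in asil1-1 by exonic length class in nt. Right, median log2 deviation from the gene mean of transcripts over 4000 nt minus that of transcripts up to 800 nt, 1 point per library. The share called higher is 54.8% among the shortest and 1.55% among the longest genes. The libraries of the groups lie on opposite sides of 0, where centring on the mean of the 6 libraries puts any difference between the groups.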

How the data were processed

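Per the labels' protocols, 5 ug of total RNA went through polyA selection into each library. The deposited tables give unnormalized read counts per transcript model. TAIR10, Bowtie 0.12.7 and edgeR 3.0.8 are named in the submitters' processing notes. The counting program, the strand setting and how multiply mapping reads were treated are not stated in the sources used here. Model suffixes were stripped from the identifiers. The 6 libraries alone were fitted with edgeR 4.0.16 in R 4.3.3 (filterByExpr, TMM, robust quasi-likelihood, 1 mean per group, 4 residual degrees of freedom), with Benjamini-Hochberg adjustment over 17987 genes and a threshold of 0.05. Levels are CPM with TMM factors over all 21 libraries. Standard errors derive from the F statistic. The script was tested on simulated data.

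Exonic length came from RefSeq's TAIR10.1, in which 23867 of 24100 loci were found. The correction subtracts each library's lowess trend (span 0.3) of log CPM on length. The root score is the mean centred log2 level of the root markers.

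The members and gene lists were chosen with earlier results of these data known. Of 432 list entries, 1 was dropped and 425 were in the files, and the others were not analysed here. Named genes are ASIL1 and ASIL2, the 12 largest differences of at least 1 CPM and the 12 smallest p in each direction among called genes with a symbol and without overlap, up to 4 members of each list by p, and called neighbours of ASIL1 and ASIL2 within 5 genes. Further list members were named after their values were seen. Alternatives were RLE scaling, a filter of 1 CPM in 3 libraries, no filter, DESeq2 1.42.0, removal of organellar genes, wider fits, a replicate block, the length correction, the root score and leaving out each library. Replicates of a group differed by far more than sampling noise.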

Additional observations from a re-analysis of the deposited data

How the results depend on the processing

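With the replicate number as a block, 1980 genes were higher and 1276 lower in asil1-1. Same-numbered libraries of the groups did not deviate together (correlations of -0.402, -0.0439 and -0.117 across genes). With 3 libraries per group these values cannot exclude a pairing by number. With the length correction 1675 were higher and 1572 lower, and with block and length correction together 932 higher and 906 lower. Leaving out 1 library in turn gave 2044 to 2827 higher and 1434 to 1997 lower. Under RLE scaling, both other filters, DESeq2 (2435 higher, 1745 lower), removal of organellar genes, the fits of all 21 libraries (2439 and 1815) or with asil1-1 asil2-1, and the root score (3402 and 2679), the counts were within 1.5 times. ASIL1 and ASIL2 were called lower under each of these. No named gene that was called changed direction. Of 152 named genes, 139 kept their direction and side of the threshold with the block, 134 with the length correction and between 138 and 143 without 1 library. Depth limits genes near 3 counts, which is 0.164 to 0.373 CPM in these libraries, and intervals from 3 libraries per group rest on 4 residual degrees of freedom.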

Other observations

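Families were also counted whole, with groupings made after the values were seen. Of 49 tested WRKY factors, 18 were lower in asil1-1 than in the libraries labelled asil2-1 and 0 higher by edgeR (11.3% and 15.5% of all genes were), and of 21 tested U-box ubiquitin ligases named PUB, 18 were lower and 0 higher (median log2 difference -0.61). With the length correction the counts were 16 and 13 lower, beside 8.74% of all genes. A further family was 263 tested nuclear genes with ribosomal protein in the product name and no chloroplast, plastid or mitochondrial word. Some other names, such as those with kinase, were left out, and the compartment was not checked. Of these genes, 208 were higher and 1 lower in asil1-1 (median 0.59), beside 15.5% and 11.3% of all genes. Their median exonic length was 1017 nt, and with the length correction 119 were higher and 11 lower (median 0.29), beside 9.31% and 8.74% of all genes. Of 24 tested subunits of the mitochondrial import translocases, 14 were higher and 0 lower by edgeR (15.5% and 11.3% of all genes), and with the length correction 8 were higher and 1 lower.

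Transcripts of the mitochondrial genome summed to 27.0, 21.6 and 23.5 CPM in asil1-1, against 97.4, 101 and 90.3 CPM in the libraries labelled asil2-1. Of 90 in the files, 21 passed the filter, and of these 19 were lower and 1 was higher, beside 11.3% and 15.5% of all genes. A gene nearly absent from asil1-1 could pass through the libraries labelled asil2-1 alone, as ATMG00285 did (0 CPM in each asil1-1 library). The filter thus favoured lower calls, and these counts do not describe the whole mitochondrial genome. With no filter the count of 19 lower was 33 of 83 tested. ATMG01370 was at 0.316, 0 and 0.134 CPM in asil1-1 against 6.23, 5.29 and 6.41 CPM in the libraries labelled asil2-1 (-5.09 ± 0.48). In these polyA-selected libraries mitochondrial transcripts were only 0.00206% to 0.0105% of the counts. Transcripts of the chloroplast genome summed to 818, 647 and 563 CPM in asil1-1, against 1290, 2270 and 736 CPM in the libraries labelled asil2-1, where replicate 2 was highest. Of 45 tested, 8 were lower and 1 higher, beside 11.3% and 15.5% of all genes. The count of 8 was 2 without asil2-1 replicate 2, 4 without asil1-1 replicate 2 and 22 without asil2-1 replicate 3. It was 18 by DESeq2 and 16 of 56 tested in the fit of all 21 libraries.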
